A study of Homo sapiens with 7 samples.

Results

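The translation initiation factor genes are 40 genes for subunits of eIF1 to eIF6, relatives such as EIF4A3, and 4E-binding proteins, without EIF4E3, EIF4EBP3 and EIF5A2. They were taken by gene symbol from a table of 20072 gene symbols, by a rule on names that uses no measured value. All 40 were found in the table, and 38 of them reached a mean of at least 1 RPKM in some assay. RPKM divides a gene's reads by its exonic length and by the size of the library. The material was log-phase HCT116 cells, an established and near-diploid human colorectal carcinoma line grown in serum-free medium with epidermal growth factor, insulin and transferrin. Transcription rate (TR) came from 2 GRO-seq libraries, which read the nascent RNA that engaged polymerases extend with bromo-UTP in isolated nuclei. mRNA abundance (RA) came from 3 RNA-seq libraries of purified mRNA. Translation activity (TA) came from 2 libraries of mRNA purified from the polysome part of sucrose gradients, after the cells had been treated with cycloheximide to hold ribosomes on the mRNA. The cells carried no treatment that differed between libraries, so the assays are the groups. The study calls the replicates biological. Whether each came from a culture of its own is not given in the sources used here, so p-values measure the spread between these libraries, which may be partly technical.

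Initiation of translation brings a ribosome to the start codon of an mRNA. eIF2 carries the initiator tRNA with GTP to the small ribosomal subunit, eIF2B recharges eIF2 with GTP, and eIF1, eIF1A and the large eIF3 complex prepare the small subunit for scanning. eIF4F, which holds the cap-binding protein EIF4E, the helicase EIF4A and the scaffold EIF4G, recruits the mRNA, while the 4E-binding proteins keep EIF4E from the scaffold. eIF5 and eIF5B act when the start codon is met and the large subunit joins. Several mRNAs of this machinery start with a C followed by a run of pyrimidines, the 5′ terminal oligopyrimidine (TOP) tract best known from ribosomal protein mRNAs, through which mTOR signalling and LARP1 control them.

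The first bases of the transcripts are shown because such a tract at the annotated start divides the eIF3 genes. A tract was called where the annotated start of the canonical transcript (GENCODE release 44 on GRCh37, the same assembly as the hg19 of the files) was a C followed by at least 4 bases that were C or T on the sense strand. It was found in 12 of 40 initiation factor genes (30%), in 838 of 17871 protein-coding genes of the table (4.69%) and in 58 of 77 cytosolic ribosomal protein genes (75.3%). The 12 genes were EIF2S3, EIF3A, EIF3C, EIF3D, EIF3E, EIF3F, EIF3H, EIF3K, EIF3L, EIF3M, EIF4A2 and EIF4B, so that 9 of 13 eIF3 subunits carried it. When a tract was allowed to begin anywhere within 20 bases of the start, 25 of 40 members (62.5%) had one, beside 49.8% of the protein-coding genes and 97.4% of the ribosomal protein genes. This wider rule does not divide the eIF3 genes, since EIF3B, EIF3G, EIF3I and EIF3J, like the other subunits, then had a tract. Each sequence below runs 5′ to 3′ from 5 bases before the annotated start through the first 15 bases of the transcript, and capitals mark the run of pyrimidines that begins with a C at the start.
EIF3A, chr10:120840315-120840334, minus strand: tccttCCTTTCCgtctctgg
EIF3D, chr22:36925199-36925218, minus strand: gtttcCTCTTTTCCTggttt
EIF3F, chr11:8008879-8008898, plus strand: gcctcCTTCTTTCTCgacaa
EIF3K, chr19:39109823-39109842, plus strand: accacCTCTTCCTgttcccg
EIF3L, chr22:38245421-38245440, plus strand: tcgctCTTTCCggcggtgct
EIF3M, chr11:32605372-32605391, plus strand: gttccCTTTTCCggtcggcg
EIF2S3, chrX:24073068-24073087, plus strand: ccttcCTCTTTTggcaacat
EIF4A2, chr3:186501361-186501380, plus strand: gctgtCTTTTCagtcgggcg
EIF4B, chr12:53400235-53400254, plus strand: cgggtCTTTTgcgttctctt
The same window is given for 4 eIF3 genes without a tract of that length, of which EIF3G has a run of 4 and the others start on another base.
EIF3B, chr7:2394457-2394476, plus strand: cgcacatggctgggctgtag
EIF3G, chr19:10230561-10230580, minus strand: ccgctCTCTggccgggcttg
EIF3I, chr1:32688003-32688022, plus strand: gtcttactcacgttgcggcc
EIF3J, chr15:44829340-44829359, plus strand: gtgctaactcctcgctagct
A tract at an annotated start is a description of the sequence, and start sites were not measured in these cells.

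The libraries held 3391897 and 5629982 reads for TR, 20299018 to 22532134 for RA and 22421062 and 30805391 for TA, as worked out from the RPKM values, and reads carry no molecular identifiers, so any precision from them covers counting error only. Initiation factor genes took 0.542% to 0.572% of the reads in TR, 1.03% to 1.22% in RA and 0.998% to 1.19% in TA. The thinnest tested member was EIF4EBP1, with 57 reads in TR replicate 1. Of 7 markers of colon epithelial carcinoma cells, 5 stood at 1 RPKM or more in RA (VIL1 and LGALS4 did not), with a summed RA of 1101 to 1544 RPKM. None of 3 leukocyte or 3 endothelial markers and 1 of 3 fibroblast markers (COL1A1) reached 1 RPKM, with summed RA of at most 0.209, 0.225 and 13.8 RPKM. RPKM values are shares of a library, so a higher level per cell and a lower level of the other mRNAs cannot be told apart.

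EIF4A1 and EIF3C could not be assessed. EIF4A1, the major helicase of eIF4F, is listed at 0 in all 7 libraries. EIF3C, a core subunit of eIF3, is listed at 0 in 4 libraries and had 1, 3 and 1 reads in RA replicate 1, RA replicate 3 and TA replicate 2, which is no more than the floor of 3 reads. Of the 50-base windows of their canonical transcripts, 100% for EIF4A1 and 98.8% for EIF3C also occur in transcripts of other genes. The EIF4A1 windows are shared mainly with the read-through gene SENP3-EIF4A1 (83%) and an overlapping long non-coding RNA (91.7%), and the EIF3C windows with EIF3CL, which is also listed at 0 in all 7 libraries. Whether this sharing set the zeros was not tested. All counts below refer to the other 38 genes.

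**Figure D1:**
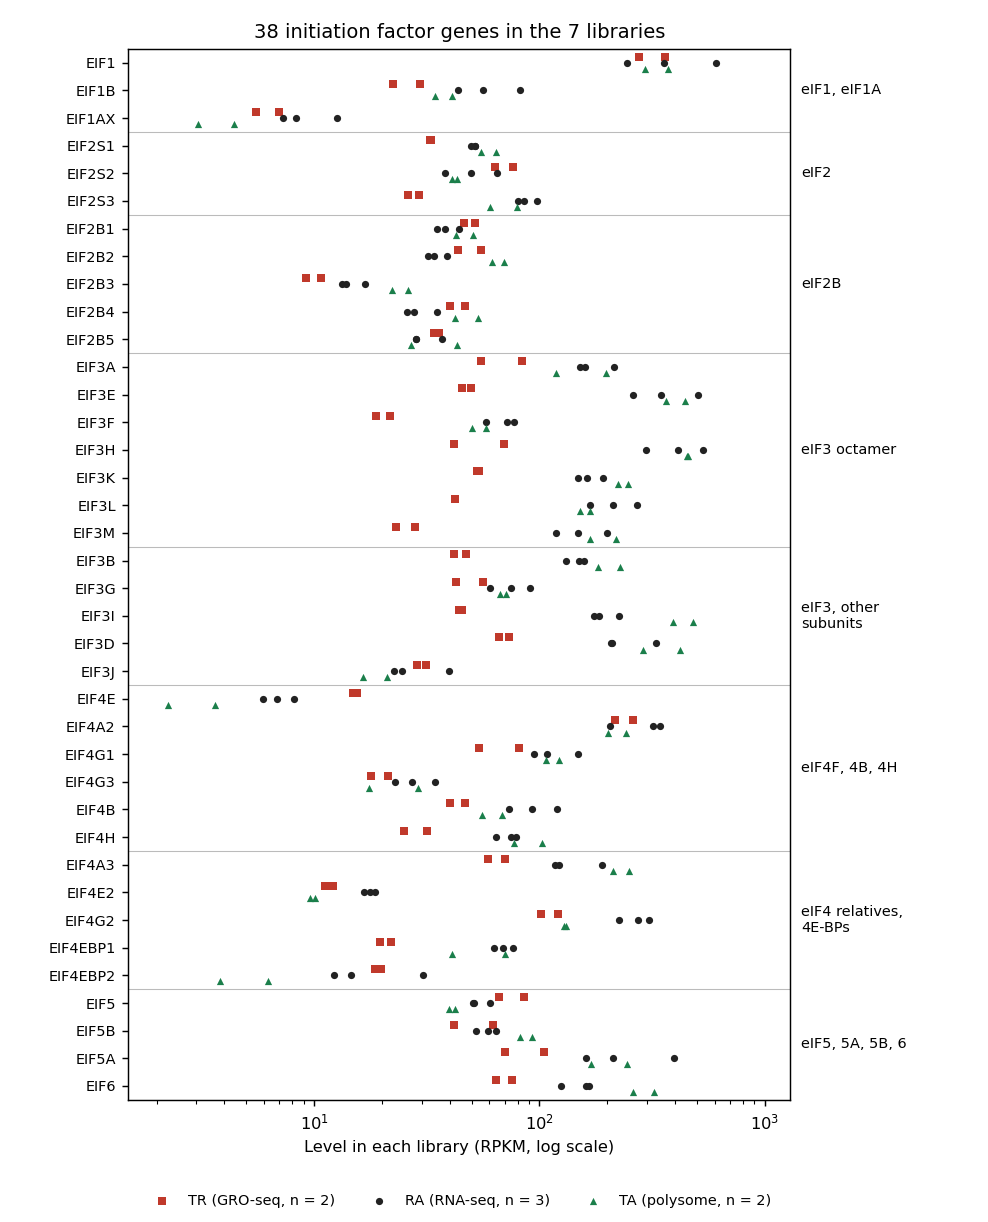
RPKM of 38 initiation factor genes in each of the 7 libraries on a log axis, with 1 line per gene and the genes ordered by complex (squares, TR; circles, RA; triangles, TA). Mean RA is highest for EIF3H (413.5 RPKM) and EIF1 (402 RPKM) and lowest for EIF4E (6.96 RPKM), and in 7 of 7 measured genes of the eIF3 octamer every RA library lies to the right of both TR libraries.

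The question of the first comparison was how far mRNA abundance departs from transcription rate. The stability index, log2(RA/TR), was computed as the difference of mean log2(RPKM + 0.1) in 1 limma fit of the 7 libraries. Most initiation factor genes stood higher in RA than in TR. The index was above 0 for 24 of 38 genes (63.2%) and below 0 for 4, EIF2B2, EIF2B4, EIF4E and EIF5, at an adjusted p under 0.05. Among all 14305 genes tested, 19.2% were called above 0 and 48% below. The median index was 0.95 over the 38 genes and -0.58 over all genes. When every library was centred on its own median, the median of all genes moved by 0.67, and after it 28 members were called above 0 and none below (none at an unadjusted p under 0.05 either), beside 35.4% and 33.7% of all genes. An uncalled member was not shown to be equal in TR and RA. With TR replicate 2 left out, 18 members were called above 0 and 0 below (1 at an unadjusted p under 0.05), and with TR replicate 1 left out, 21 and 3. Leaving out RA replicate 1, 2 or 3 gave 22 above and 1 below, 22 and 5, and 23 and 1, and leaving out either TA replicate gave 23 and 2.

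eIF3 subunit genes had the highest stability indices of the machinery, led by the octamer of PCI- and MPN-domain subunits that forms the core of the complex. EIF3E, a PCI-domain subunit, stood at 49.9 and 45.1 RPKM in TR, 261, 506 and 346 RPKM in RA and 444 and 364 RPKM in TA. Every RA library of EIF3E was far above both TR libraries, and the TA libraries lay within the range of RA. Its stability index was 2.91 ± 0.30 (SE), a 7.53-fold difference (adjusted p = 6.0e-05 by limma). EIF3H, an MPN-domain subunit, stood at 69.4 and 41.6 RPKM in TR, 298, 531 and 412 RPKM in RA and 455 and 452 RPKM in TA, with the same gap between TR and both other assays. Its index was 2.90 ± 0.32, or 7.47-fold (adjusted p = 9.3e-05). EIF3M, a PCI-domain subunit, had the lowest TR of these leading genes, with 27.9 and 23.1 RPKM in TR, 119, 199.9 and 148 RPKM in RA and 218 and 168 RPKM in TA. RA and TA of EIF3M overlapped, and its index was 2.57 ± 0.26, or 5.96-fold (adjusted p = 5.1e-05).

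The other 4 measured octamer genes were also called above 0, with indices of 2.34 for EIF3L, 1.75 for EIF3F, 1.64 for EIF3K and 1.34 for EIF3A. EIF3L carries the limit that 51.8% of its exon bases are overlapped by other annotated genes, mainly a long non-coding RNA on the same strand (41.1%). EIF3A, the largest subunit, stood at 83.5 and 55.2 RPKM in TR, 151, 214 and 159 RPKM in RA and 198 and 119 RPKM in TA, and its TR replicates were further apart than those of the other octamer genes but EIF3H. Without TR replicate 2 the index of EIF3A was 1.04 and was not called (adjusted p = 0.073).

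Outside the octamer, EIF3I, EIF3D, EIF3B and EIF3G were called above 0 as well. EIF3I, a WD-repeat subunit of the module that EIF3B and EIF3G share with it, was called in both indices, at 45.5 and 43.9 RPKM in TR, 184, 225 and 175 RPKM in RA and 480.2 and 391 RPKM in TA. Its levels rose in order without overlap from TR to RA to TA, with a stability index of 2.11 ± 0.21 (adjusted p = 4.8e-05). EIF3D, a subunit that can itself contact the cap of some mRNAs, had an index of 1.79 ± 0.29, and EIF3B, the scaffold of the module, had 1.71 ± 0.20. EIF3G, an RNA-binding subunit, was close to the threshold, with 56.2 and 42.5 RPKM in TR, 74.8, 90.6 and 60.3 RPKM in RA and 71.3 and 66.5 RPKM in TA and an index of 0.60 ± 0.22 (adjusted p = 0.041). The call of EIF3G was lost without either TR replicate, RA replicate 1 or 2, or either TA replicate, with indices of 0.40 to 0.80 and adjusted p of 0.05 to 0.25.

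EIF3J stood apart from the other 11. It encodes the loosely attached subunit that leaves the complex easily and is often not counted among its stable members. The gene stood at 28.7 and 31.5 RPKM in TR, 22.5, 39.6 and 24.6 RPKM in RA and 21.04 and 16.5 RPKM in TA. TR lay within the range of RA for EIF3J, and its stability index was -0.10 ± 0.26 (95% interval -0.70 to 0.50, adjusted p = 0.74). Without RA replicate 1 the index was 0.05. In all, 11 of 12 measured eIF3 genes (91.7%) were called above 0, with a median of 1.77. The same held for 7 of 7 octamer genes, with a median of 2.34. Over all genes, 19.2% were called above 0, and the median was -0.58. Leaving out single libraries gave 9 to 11 eIF3 genes called above 0. RA replicate 2 was the highest RA library for 12 of 12 eIF3 genes, beside 35.2% of all genes tested, and TA replicate 1 was the highest TA library for 11 of 12, beside 50.7%. Without RA replicate 2, 10 eIF3 genes were called above 0.

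**Figure D2:**
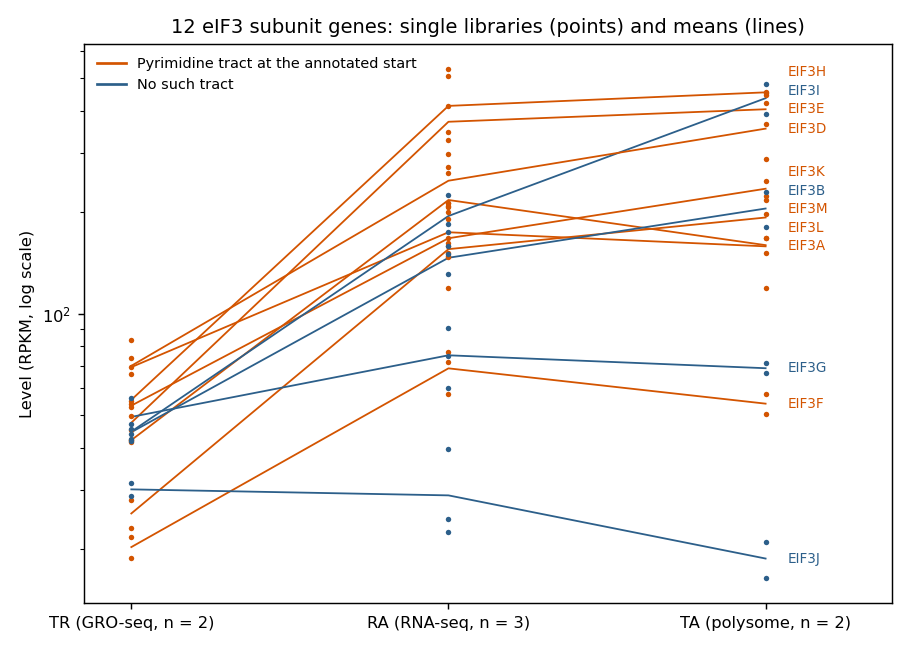
RPKM (log axis) of 12 eIF3 subunit genes in TR, RA and TA, where points are single libraries and lines join the arithmetic means. Orange genes carry a pyrimidine tract at the annotated start and blue genes do not. All lines but that of EIF3J climb from TR to RA.

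The subunits of eIF3 also drew apart from each other between the assays. In TR, the SD of the log2 levels over the 12 measured genes was 0.58 and 0.54 in the 2 libraries. It was 1.04, 1.10 and 1.12 in RA and 1.42 and 1.38 in TA. The libraries of the 3 assays did not overlap in this measure. The highest subunit exceeded the lowest by 3.45 times in mean TR (EIF3D over EIF3F), by 14.3 times in mean RA and by 24.2 times in mean TA (EIF3H over EIF3J in both). Within the 7 measured octamer genes, which leave EIF3J out, the ratios were 3.42, 6.01 and 8.39 times and the mean SDs 0.64, 0.86 and 1.03, again with no overlap between the libraries of the 3 assays. Over 10823 genes with at least 1 RPKM in each assay, the SD went the same way, from a mean of 1.30 in TR to 1.70 in RA and 1.97 in TA. The 3 subunit genes of eIF2 went the other way, from a mean SD of 0.71 in TR to 0.49 in RA and 0.37 in TA. So did the 5 genes of eIF2B, from 0.98 to 0.57 and 0.55. In both complexes the RA and TA libraries overlapped in this measure, and only the step from TR to RA was without overlap. The highest eIF2B gene exceeded the lowest by 4.945 times in mean TR, 2.673 times in RA and 2.698 times in TA, with EIF2B3 lowest in each. Subunits are not replicates, and these SDs were not tested.

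Genes with a pyrimidine tract had higher stability indices as a group than the members without one. Of 11 measured members with the tract, 10 were called above 0 (90.9%), and the median was 1.75. EIF4A2 was the exception, at 0.25 ± 0.28. Of its exon bases, 17.8% are overlapped by other annotated genes, among them small nucleolar RNAs on the same strand. The part of this overlap in its index was not tested. Of 27 members without the tract, 14 were called above 0 (51.9%) and 4 below, with a median of 0.54. Because 8 of those 11 genes belong to eIF3, tract and complex cannot be told apart here. EIF2S3 and EIF4B carry the tract outside eIF3 and were called above 0, with 1.66 and 1.11, while EIF3B and EIF3I, whose annotated starts do not carry it, had 1.71 and 2.11. Both EIF3B and EIF3I have a tract that begins within 20 bases of the start. The genes EIF3E, EIF3F, EIF3H and EIF4B, long known as TOP mRNAs, were all called, with a median of 2.33. Over all genes, 221 of 688 with the tract (32.1%) and 18.8% of 12400 without it were called above 0, with medians of -0.13 and -0.55. RA replicate 2 was the highest RA library in 11 of 11 measured members with the tract, beside 35.2% of all genes. With it left out, 10 of the 11 were still called above 0, and without TR replicate 2, 9 were.

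eIF2 did not move as a unit. EIF2S1, the alpha subunit that stress kinases phosphorylate, stood at 32.6 and 33.05 RPKM in TR, 51.6, 51.7 and 49.95 RPKM in RA and 63.9 and 55.2 RPKM in TA. The 3 assays of EIF2S1 did not overlap, and its stability index was 0.64 ± 0.15 (adjusted p = 0.0062). EIF2S3, the gamma subunit that binds GTP and the initiator tRNA, stood at 29.4 and 26.04 RPKM in TR, 85.7, 98.02 and 80.2 RPKM in RA and 79.3 and 60.7 RPKM in TA. Every RA library of EIF2S3 was above both TR libraries and, barely, above both TA libraries, with an index of 1.66 ± 0.19 or 3.16-fold (adjusted p = 1.0e-04). EIF2S2, the beta subunit, stood at 63.5 and 76.1 RPKM in TR, 37.99, 64.7 and 49.8 RPKM in RA and 42.9 and 41.1 RPKM in TA. TR and RA of EIF2S2 overlapped through RA replicate 2, with an index of -0.48 ± 0.24 (adjusted p = 0.1), and without that library the index was -0.68 (adjusted p = 0.024). In the windows of their canonical transcripts, 20.1% for EIF2S3 and 23.5% for EIF2S2 also occur in other genes, mainly the retrogene EIF2S3B and EIF2S2 pseudogenes.

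eIF2B was the complex with the lowest stability indices, with a median of -0.33 over its 5 genes. EIF2B4, the delta subunit, stood at 40.1 and 46.8 RPKM in TR, 27.7, 34.99 and 25.8 RPKM in RA and 53.2 and 42.1 RPKM in TA. Every RA library of EIF2B4 was below both TR libraries, and its index was -0.57 ± 0.20 (adjusted p = 0.035). EIF2B2, the beta subunit, stood at 43.6 and 55.2 RPKM in TR, 31.97, 39.1 and 33.9 RPKM in RA and 69.5 and 61.4 RPKM in TA, again with RA below TR in every library, and its index was -0.49 ± 0.18 (adjusted p = 0.041). EIF2B3, the gamma subunit of the catalytic pair, went the other way, at 9.21 and 10.8 RPKM in TR, 13.9, 16.7 and 13.2 RPKM in RA and 26.2 and 22.3 RPKM in TA and an index of 0.54 ± 0.19 (adjusted p = 0.031). EIF2B1, the alpha subunit, had -0.33 and EIF2B5, the catalytic epsilon subunit, had -0.18, and neither was called. These 3 calls were small and fragile. EIF2B2 was not called without TR replicate 2 (-0.32), RA replicate 1 (-0.43), RA replicate 3 (-0.47) or either TA replicate (-0.49), with adjusted p of 0.052 to 0.20. EIF2B4 was not called without TR replicate 1 (-0.68), TR replicate 2 (-0.46), RA replicate 1 (-0.53) or RA replicate 3 (-0.47), and EIF2B3 not without TR replicate 1 (0.43), TR replicate 2 (0.65) or RA replicate 2 (0.44). After centring, all 5 indices were above 0, with 0.18 for EIF2B2 and 0.11 for EIF2B4.

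Within eIF4F and its helpers, the cap-binding protein EIF4E was the member with the lowest stability index. EIF4E stood at 14.9 and 15.5 RPKM in TR, 8.14, 5.91 and 6.83 RPKM in RA and 2.25 and 3.62 RPKM in TA. Its levels stepped down from TR to RA to TA with no overlap between assays. The index was -1.13 ± 0.25, so that RA was 2.18 times lower than TR (adjusted p = 0.0046). After centring it was -0.45 and was not called, and without TR replicate 2 it was -1.10 with an adjusted p of 0.054. Of the EIF4E windows, 20.9% also occur in its pseudogenes.

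The scaffold and the helicase helpers of eIF4F had indices of 0 or above. EIF4G1, the main scaffold, stood at 80.9 and 53.7 RPKM in TR, 149, 94.2 and 108 RPKM in RA and 122 and 107 RPKM in TA, with every RA library above both TR libraries. Its index was 0.80 ± 0.26 (adjusted p = 0.027), and it was not called without TR replicate 2 (0.50, adjusted p = 0.22), RA replicate 1 (0.61, 0.055) or RA replicate 3 (0.84, 0.054). EIF4G3, the second scaffold, stood at 21.2 and 17.9 RPKM in TR, 22.9, 34.5 and 27.3 RPKM in RA and 29.04 and 17.6 RPKM in TA and was not called, at 0.51 ± 0.26. EIF4A2, the helicase left in these data, stood at 216 and 261 RPKM in TR, 206, 342 and 319.7 RPKM in RA and 243 and 203 RPKM in TA. RA replicate 1 of EIF4A2 was below both TR libraries and the other RA libraries above them, and the index of 0.25 ± 0.28 was not called (adjusted p = 0.46). EIF4B and EIF4H, which stimulate the helicase, were called above 0 at 1.11 ± 0.23 and 1.35 ± 0.20, with RA of 73.6, 119 and 92.6 RPKM over TR of 39.98 and 46.6 RPKM for EIF4B and RA of 78.8, 75.01 and 64.2 RPKM over TR of 31.8 and 25.2 RPKM for EIF4H. For EIF4B, 33% of the windows also occur in other genes, mainly pseudogenes.

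Beside 19.2% of all genes, 4 of 5 relatives of eIF4F subunits and 4E-binding proteins were called above 0 in the stability index. EIF4EBP1, a 4E-binding protein that mTOR phosphorylates, stood at 19.6 and 21.9 RPKM in TR, 68.7, 62.8 and 76.5 RPKM in RA and 41.04 and 70.04 RPKM in TA and led them with 1.73 ± 0.24 (adjusted p = 3.2e-04). EIF4G2, a scaffold that lacks the binding site for EIF4E, stood at 121 and 102 RPKM in TR, 307, 227 and 274 RPKM in RA and 129 and 131 RPKM in TA and had 1.27 ± 0.21. EIF4A3, the helicase of the exon junction complex, stood at 70.05 and 59.2 RPKM in TR, 189, 123 and 117 RPKM in RA and 250.2 and 212 RPKM in TA and had 1.11 ± 0.25. In all 3 genes every RA library was above both TR libraries. EIF4A3 was not called without TR replicate 2 (0.99, adjusted p = 0.063). EIF4E2, a cap-binding protein that represses translation, stood at 12.1 and 11.2 RPKM in TR, 17.7, 18.7 and 16.7 RPKM in RA and 9.59 and 10.1 RPKM in TA, with an index of 0.60 ± 0.16 (adjusted p = 0.011). EIF4EBP2 was the one not called, at 19.7 and 18.7 RPKM in TR, 30.5, 12.3 and 14.6 RPKM in RA and 3.83 and 6.24 RPKM in TA. RA replicate 1 of EIF4EBP2 was far above the other RA libraries, which lay below TR, and the index was -0.12 ± 0.39. It was 0.13 without RA replicate 2 and 0.01 without RA replicate 3.

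EIF1, which guards the choice of the start codon, was the member with the most TR, at 277 and 360.2 RPKM in TR, 245, 606 and 357 RPKM in RA and 374 and 295 RPKM in TA. TR and RA of EIF1 overlapped, and its index of 0.25 ± 0.39 was not called, at -0.09 without RA replicate 2. EIF1B, a close relative, stood at 22.4 and 29.7 RPKM in TR, 43.4, 81.7 and 55.99 RPKM in RA and 34.5 and 40.9 RPKM in TA. RA of EIF1B was above TR in every library, with 1.17 ± 0.28 (adjusted p = 0.0057), and the call was lost without TR replicate 1 (0.97, adjusted p = 0.082). EIF1AX, which works with EIF1 in scanning, stood at 6.99 and 5.53 RPKM in TR, 12.6, 8.27 and 7.25 RPKM in RA and 3.05 and 4.399 RPKM in TA and was not called, at 0.54 ± 0.30.

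The late-acting factors differed from each other. EIF5, which stimulates GTP hydrolysis by eIF2, stood at 65.9 and 85.8 RPKM in TR, 50.7, 60.4 and 51.2 RPKM in RA and 42.05 and 39.8 RPKM in TA. Every RA library of EIF5 was below both TR libraries and every TA library below every RA library. The stability index was -0.48 ± 0.18 (adjusted p = 0.046), at the edge of the threshold, and it was not called without TR replicate 2 (-0.29), RA replicate 1 (-0.43), RA replicate 3 (-0.44) or either TA replicate (-0.48). EIF5B, the GTPase of subunit joining, stood at 62.2 and 41.9 RPKM in TR, 64.1, 59.4 and 52.1 RPKM in RA and 92.5 and 82.05 RPKM in TA and was not called, at 0.19 ± 0.21, or -0.09 without TR replicate 2. EIF5A, the hypusine-carrying factor that also helps elongation, stood at 105 and 70.05 RPKM in TR, 396, 161 and 213 RPKM in RA and 169 and 245 RPKM in TA. RA replicate 1 of EIF5A was the highest of its libraries, and the index of 1.48 ± 0.40 (adjusted p = 0.011) became 1.19 without TR replicate 2 and was then not called (adjusted p = 0.14). Of the EIF5A windows, 36.8% also occur in EIF5AL1, which had 20.1, 10.99 and 12.7 RPKM in RA. EIF6, which keeps the large ribosomal subunit from joining too early, stood at 75.5 and 64.1 RPKM in TR, 165, 160.5 and 125 RPKM in RA and 322 and 261 RPKM in TA and rose at each step without overlap, with a stability index of 1.10 ± 0.22 (adjusted p = 0.0024).

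**Figure D3:**
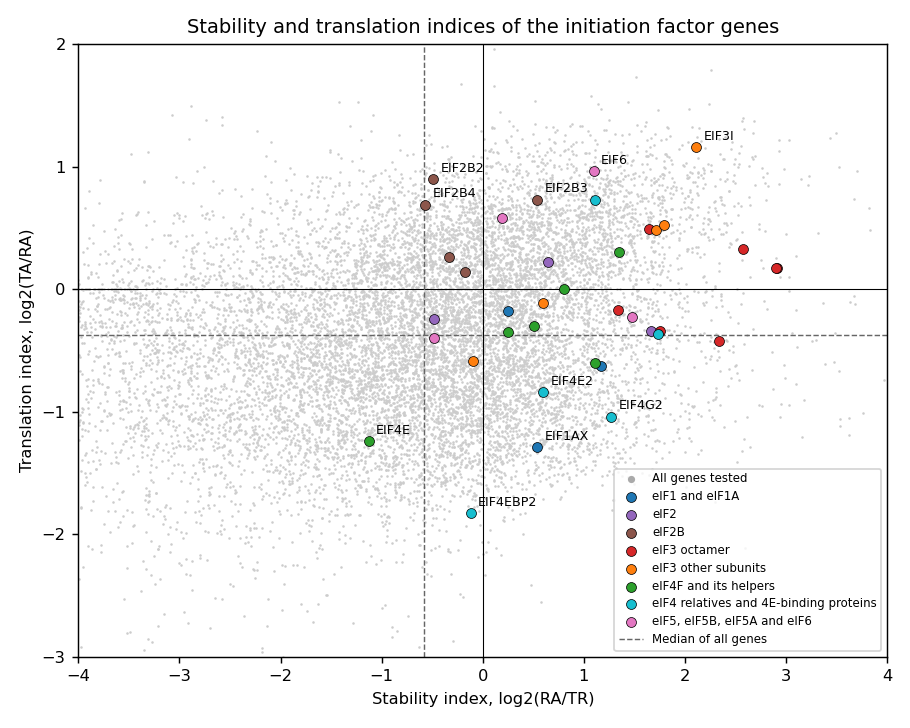
Stability index (x axis) and translation index (y axis) of 38 initiation factor genes, coloured by complex, over all 14305 genes tested in grey, both on the log2 scale. Solid lines mark 0, dashed lines the medians of all genes (-0.58 and -0.37), points of all genes beyond the axis ends are not drawn, and the 10 members called in the translation index are named.

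The second comparison asked how far polysome-bound mRNA departs from mRNA abundance. By the translation index, log2(TA/RA), in the same fit, the initiation factor genes split. EIF2B2, EIF2B3, EIF2B4, EIF3I and EIF6 were called above 0, and EIF1AX, EIF4E, EIF4E2, EIF4EBP2 and EIF4G2 below. These are 13.2% of the 38 genes each way, beside 6.66% of all genes called above 0 and 29.2% below. The median index was -0.14 over the 38 genes and -0.37 over all genes. Centring moved the median of all genes by 0.50. After it, 13 members were called above 0 and only EIF4EBP2 below, beside 19% and 9.81% of all genes. Without TA replicate 1, 1 gene, EIF3I, was called above 0 and none below (4 above and 7 below at an unadjusted p under 0.05), with TA then read from a single library assumed to vary like the others. The calls among all genes went from 953 to 198 above 0 and from 4173 to 1803 below. Without RA replicate 3, 2 members were called above 0 and 5 below.

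EIF3I had the highest translation index. TA of 480.2 and 391 RPKM stood over RA of 184, 225 and 175 RPKM, an index of 1.16 ± 0.21 or 2.24-fold (adjusted p = 0.0062), and it was still called without TA replicate 1 (1.01, adjusted p = 0.049). Its processed pseudogene EIF3IP1 went the same way, with 11.7, 13.3 and 13.2 RPKM in RA and 32.6 and 27.8 RPKM in TA. The pseudogene was not called (1.23 ± 0.45, adjusted p = 0.062 by limma), and whether its reads come from EIF3I was not tested. EIF6 had an index of 0.96 ± 0.22 (adjusted p = 0.013), which was not called without RA replicate 3 (0.83, adjusted p = 0.051) or TA replicate 1 (0.81, adjusted p = 0.094). For EIF6, 23% of the windows are shared with an overlapping annotated gene.

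eIF2B was the complex with the most calls above 0, at 3 of 5 beside 6.66% of all genes, and a median of 0.69. TA exceeded RA in every library for EIF2B2 (0.90 ± 0.18, adjusted p = 0.0087), EIF2B3 (0.73 ± 0.19, adjusted p = 0.02) and EIF2B4 (0.69 ± 0.20, adjusted p = 0.029). In EIF2B1 and EIF2B5 the assays overlapped, with 0.26 and 0.14. EIF2B5, the lowest of the 5, stood at 34.1 and 35.9 RPKM in TR, 28.3, 37.05 and 28.3 RPKM in RA and 43.2 and 26.9 RPKM in TA, with TA replicate 1 above and TA replicate 2 below every RA library. Its index was -0.20 without TA replicate 1. The same omission ended the calls of EIF2B2 (0.81, adjusted p = 0.064), EIF2B3 (0.61, 0.13) and EIF2B4 (0.53, 0.18). EIF2B3 was also not called without RA replicate 3 (0.66, adjusted p = 0.07), and EIF2B4 not without either TR replicate (0.69, 0.058), RA replicate 1 (0.66, 0.054) or RA replicate 3 (0.60, 0.099). After centring, 4 of the 5 were called above 0, EIF2B1 with them, beside 19% of all genes.

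Of the 5 genes called below 0 in the translation index, EIF4EBP2 was lowest, with TA of 3.83 and 6.24 RPKM below RA of 30.5, 12.3 and 14.6 RPKM and an index of -1.83 ± 0.39, so that TA was 3.55 times lower (adjusted p = 0.011). EIF1AX followed with -1.29 ± 0.30 (adjusted p = 0.014) and EIF4E with -1.24 ± 0.25 (adjusted p = 0.0092). EIF4G2 had -1.04 ± 0.21 (adjusted p = 0.0096), from TA of 129 and 131 RPKM and RA of 307, 227 and 274 RPKM, and EIF4E2 had -0.84 ± 0.16 (adjusted p = 0.0074). In all 5 genes each TA library was below each RA library. Without TA replicate 1 the indices were -1.48 for EIF4EBP2, -1.03 for EIF1AX, -0.91 for EIF4E, -1.02 for EIF4G2 and -0.80 for EIF4E2, with adjusted p of 0.05 to 0.095. After centring they were -1.32, -0.79, -0.74, -0.53 and -0.34, and only EIF4EBP2 was called.

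Most eIF3 genes were near 0 in the translation index, in contrast to their stability index. Of 12 measured genes 1, EIF3I, was called above 0 and none below (3 and 0 at an unadjusted p under 0.05), with a median of 0.17. Over all genes, 6.66% were called above 0 and 29.2% below. EIF3D, EIF3K and EIF3B had 0.52, 0.49 and 0.48 and EIF3J was lowest at -0.59 ± 0.26 (adjusted p = 0.11), with both TA libraries below every RA library. Several signs rested on 1 library. EIF3E had -0.06 and EIF3H -0.04 without RA replicate 1, EIF3G had 0.04 without RA replicate 2, and EIF3A had 0.20 without TA replicate 2. After centring, 4 eIF3 genes were called above 0, beside 19% of all genes. None of 11 measured members with a pyrimidine tract was called in either direction by limma (1 above and 1 below at an unadjusted p under 0.05), with a median of -0.17. Of 688 genes with the tract in the whole table, 3.34% were called above 0 and 32.4% below. EIF4B was called below 0 without RA replicate 1 (-0.77, adjusted p = 0.027).

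The 15 remaining members outside eIF2B and eIF3 that were not called ranged from EIF4A3 at 0.73 ± 0.25 (adjusted p = 0.057) to EIF1B at -0.63 ± 0.28 (adjusted p = 0.11). Both were called when RA replicate 1 was left out, at 0.94 (adjusted p = 0.012) and -0.85 (adjusted p = 0.035). EIF5B, at 0.58 ± 0.21 (adjusted p = 0.066), was called without either TR replicate (adjusted p = 0.047), and EIF4EBP1, at -0.37 ± 0.24, was called below 0 without TA replicate 2 (-0.75, adjusted p = 0.048) and stood at 0.02 without TA replicate 1. The genes of eIF2 were uncalled, with 0.22 for EIF2S1, -0.24 for EIF2S2 and -0.34 for EIF2S3. EIF4G1 was at 0.00 ± 0.26 and EIF4G3 at -0.30 ± 0.26, with the sign set by single libraries (0.18 without RA replicate 1 and 0.09 without TA replicate 2 for EIF4G1, and 0.06 without TA replicate 2 for EIF4G3). EIF1, at -0.18, was at 0.17 without RA replicate 2, and EIF5A, at -0.23, at 0.14 without RA replicate 1 and 0.04 without TA replicate 1.

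**Figure D4:**
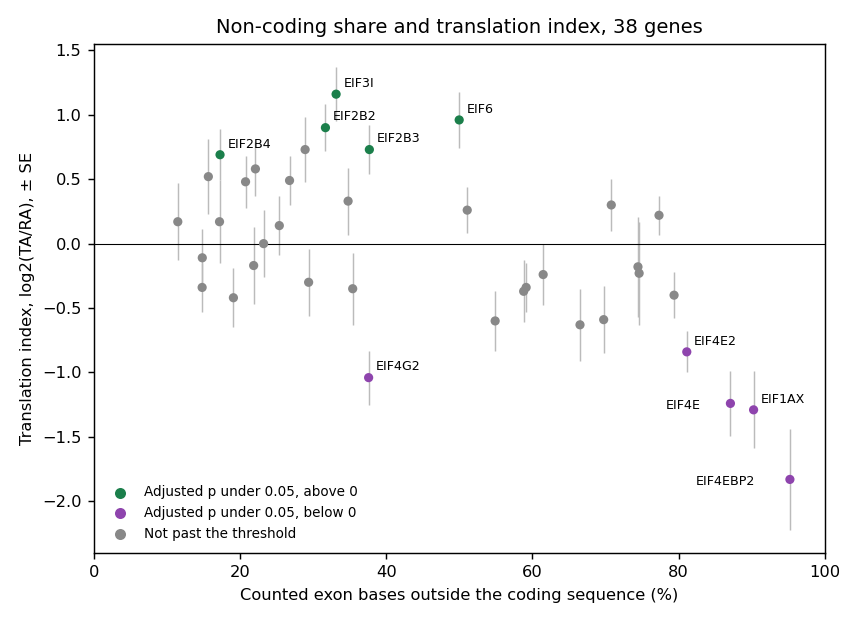
Translation index with its SE (y axis, log2) against the share of counted exon bases outside the coding sequence (x axis, %) for 38 initiation factor genes. Genes called below 0 (purple) lie at 37.6% to 95.2% and genes called above 0 (green) at 17.3% to 49.97%.

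Of the 5 members called below 0 in the translation index, 4 had a larger non-coding share than the median gene. The share of their counted exon bases outside the canonical coding sequence was 95.2% for EIF4EBP2, 90.2% for EIF1AX, 87.1% for EIF4E, 81.1% for EIF4E2 and 37.6% for EIF4G2, with a median of 87.1%. In the 5 genes called above 0 the median was 33.1%, in the 28 uncalled genes 32.1% and over 13020 genes 49.9%. Pearson's r between this share and the translation index was -0.58 over the 38 genes (Spearman's rho -0.49), and -0.14 over all genes (rho -0.17). With the stability index it was -0.42 over the 38 genes (rho -0.41) and 0.12 over all genes (rho 0.09). Counted exons can include those of other isoforms. For some genes they are shorter than the canonical transcript, with 1541 against 4304 bases for EIF2B2 and 1257 against 6920 for EIF3F. With the length of the canonical transcript in place of the counted exons, a choice made after the values were seen, the shares were 95.2%, 90.2%, 73.2%, 24% and 28.3% in the same order of genes. The medians were then 73.2% for the genes called below 0, 31.2% for those called above 0 and 54.8% for the uncalled, and EIF2B2, called above 0, went from 31.7% to 75.5%. Pearson's r was then -0.40 with the translation index (rho -0.35) and -0.11 with the stability index (rho -0.09) over the 38 genes. These are descriptions across genes that share the same 7 libraries, and genes are not independent replicates. The length of counted exons moved along, with a median of 4431 bases in the genes called below 0 and 1541 bases in those called above 0, and its part in the result was not tested.

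Related genes of the same family were compared by their ratio in each library, in 6 pairs and 12 tests. With 2 libraries against 3, the exact two-sided permutation test cannot give a p below 0.1, so the comparisons rest on whether the libraries overlap. EIF4EBP1 over EIF4EBP2 gave ratios of 0.992 and 1.17 in TR, 2.25, 5.11 and 5.25 in RA and 10.7 and 11.2 in TA. The assays did not overlap at either step, with exact permutation p of 0.2 and 0.1 (adjusted over the 12 tests, 0.343 and 0.24). EIF4E over EIF4E2 gave 1.23 and 1.38 in TR, 0.459, 0.316 and 0.409 in RA and 0.234 and 0.357 in TA. Here EIF4E was the higher gene in both TR libraries and the lower one in all 5 other libraries, and only RA and TA overlapped (exact permutation p of 0.1 and 0.3, adjusted 0.24 and 0.36).

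EIF1 exceeded EIF1B in every library, with ratios of 12.3 and 12.1 in TR, 5.65, 7.42 and 6.37 in RA and 10.8 and 7.203 in TA. RA was below TR without overlap (exact permutation p = 0.1, adjusted 0.24), while RA and TA overlapped. EIF4G1 over EIF4G2 gave 0.670 and 0.529 in TR, 0.485, 0.416 and 0.393 in RA and 0.947 and 0.815 in TA. The scaffold that binds EIF4E was thus the lower of the pair in all 7 libraries, with RA below TR and TA above RA without overlap (exact permutation p = 0.1 at each step, adjusted 0.24). EIF4G1 over EIF4G3 overlapped at both steps, with mean ratios of 3.38, 4.12 and 5.07. EIF4A2 over EIF4A3, a pair taken up after the values were seen because EIF4A1 is at 0, went from 3.08 and 4.41 in TR to 1.09, 2.79 and 2.74 in RA and 0.970 and 0.955 in TA, without overlap at either step (exact permutation p of 0.3 and 0.2, adjusted 0.36 and 0.343).

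**Figure D5:**
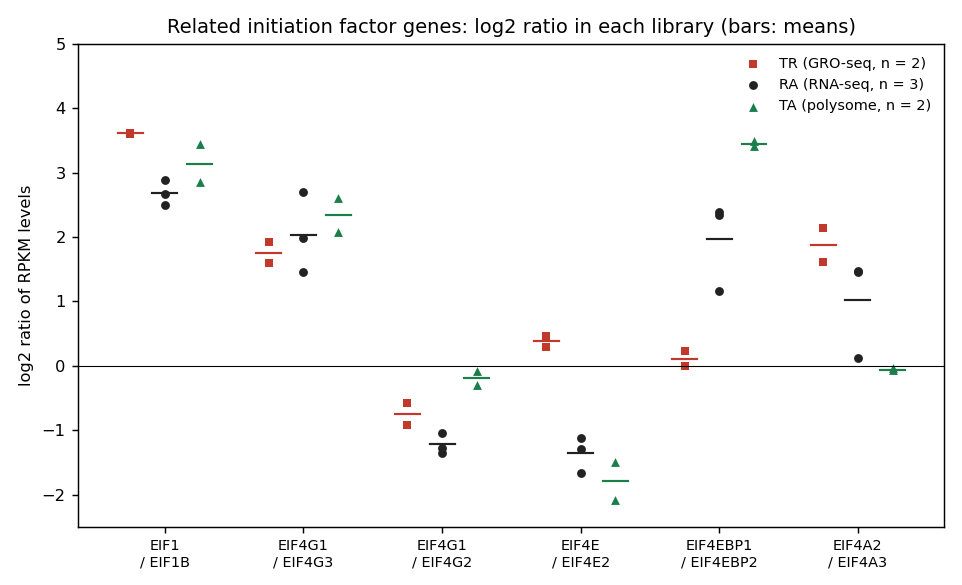
log2 of the RPKM ratio of 6 pairs of related initiation factor genes in each of the 7 libraries, with bars at the means. Ratios of EIF4EBP1 over EIF4EBP2 climb from TR (mean ratio 1.08) to RA (3.93) and TA (10.96), and those of EIF4E over EIF4E2 cross from above to below 0.

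A list of 33 other genes of initiation and its control, 32 of them tested, held calls in both directions. In the stability index 13 were called above 0 (40.6%) and 5 below (15.6%), with a median of 0.00, beside 19.2% and 48% of all genes. The highest were PABPC1, the poly(A)-binding protein (2.05), EIF2A (1.59) and CYFIP1, a partner of EIF4E (1.49), and the lowest MCTS1 (-1.97) and RPTOR, a partner of the mTOR kinase (-1.49), after EIF4EBP3. EIF4EBP3, a further 4E-binding protein, had 36 and 88 reads in TR and 0, 3 and 2 reads in RA. These RA values are no more than the floor of 3 reads, so the size of its index is not given. In the translation index 2 were called above 0 (6.25%) and 11 below (34.4%), with a median of -0.53, beside 6.66% and 29.2% of all genes. Without TA replicate 1 these were 0 above (1 at an unadjusted p under 0.05 by limma) and 5 below, and 1 was called above 0 without RA replicate 1, RA replicate 3 or TA replicate 2. PDCD4, an inhibitor of the EIF4A helicase (0.85), and ABCE1, a ribosome recycling factor (0.55), were the ones called above 0, and DDX3X, a helicase, came next without a call (0.38). The lowest were the S6 kinase gene RPS6KB2 (-1.80), EIF5A2 (-1.34) and PABPC1 (-1.24). After centring, 5 of the list were called above 0 and 6 below in the translation index, beside 19% and 9.81% of all genes. In the stability index 20 were then called above 0 and 4 below, beside 35.4% and 33.7% of all genes.

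Beside the other classes of the translation machinery, the initiation factors had the lowest median stability index and the second highest median translation index. The median stability index was 1.46 over 76 ribosomal protein genes, 1.61 over 20 cytosolic aminoacyl-tRNA synthetase genes, 1.49 over 5 elongation factor genes and 0.95 over the 38 initiation factor genes. The shares called above 0 were 63.2%, 85.0%, 60.0% and 63.2%, beside 19.2% of all genes. Of the ribosomal protein genes, 13 (17.1%) were called below 0, beside 48% of all genes. Some ribosomal protein genes had few reads in the deep RA libraries. RPS28 had 47, 76 and 47 reads in RA against 221 and 444 in TR, and RPS10 had 24, 48 and 16 against 57 and 132. Sequence shared with other genes was not examined for this list. Its part in these calls and in the medians of the list was not tested. No synthetase or elongation factor gene was called below 0 (none at an unadjusted p under 0.05). The median translation index was -0.75, 0.81, -0.58 and -0.14 in the same order. None of the ribosomal protein genes was called above 0 in it and 27 (35.5%) were called below. Of the synthetase genes, 5 (25%) were called above and none below. The zeros of both lists were the same at an unadjusted p under 0.05. Over all genes, 6.66% were called above 0 in this index and 29.2% below. Ribosomal protein genes called below 0 in the translation index numbered 5 without TA replicate 1, 14 to 17 without TR replicate 1, TR replicate 2, RA replicate 3 or TA replicate 2, and 7 after centring. Synthetase genes called above 0 in it numbered 1 without TA replicate 1, 3 without RA replicate 3, 13 without RA replicate 2 and 16 after centring. In the stability index, 8 ribosomal protein genes were called below 0 without TR replicate 2 and 8 after centring. Of all genes, centring gave 19% above 0 and 9.81% below in the translation index, and 33.7% below in the stability index. These medians are descriptions, and the differences between the lists were not tested.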

How the data were processed

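Nascent RNA (TR, 2 libraries), mRNA (RA, 3) and polysomal mRNA (TA, 2) of HCT116 cells were compared. The authors aligned reads to hg19 with TopHat, counted exonic reads by HTSeq and deposited an RPKM value for every gene in every library. The counting mode, the strand setting and the annotation are not given in the sources used here, and no strand marking is described, so reads of overlapping genes on opposite strands cannot be told apart. No raw reads were used. Members and gene lists were chosen with earlier results of these data known.

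Library sizes and exon lengths were recovered from the RPKM values, each of which is a whole number of reads divided by length and depth. On simulated data 7 of 7 sizes and 99 of 100 lengths were recovered. The depth is given in the report, and 3 reads were taken as the floor. Of 20056 genes with values, the 14305 whose mean reached 1 RPKM in some assay were tested. The test was limma (version 3.58.1, R 4.3.3) on log2(RPKM + 0.1), using eBayes with its trend option. The 7 libraries shared 1 fit, and p-values were adjusted by Benjamini-Hochberg at 0.05, two-sided. Fold changes are on the log2(RPKM + 0.1) scale and understate those of low genes. In simulated TA against RA data over 14305 genes, 37.7% of 106 genes changed by a log2 of 1 and 85.1% of 94 changed by a log2 of 2 were called, with 3 of 14105 unchanged genes. The simulated noise was the measured spread of each gene, capped and scaled down, with counting error added. In the measured data recovery may therefore be lower and false calls more frequent.

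All 40 members are named. Values in every library are given for paired relatives, eIF2, EIF5, EIF5A, EIF5B and EIF6, and for the highest and lowest member of eIF2B and eIF3 in each index, and for others that results turn on. From the list of other initiation genes, the 3 highest and 3 lowest in each index are named. Sequences and gene models came from GENCODE release 44 on GRCh37. Non-coding share is the part of the recovered exon length beyond the canonical coding length, and was repeated with the canonical transcript length after the values were seen. Alternatives covered pseudocounts of 0.01 and 1 RPKM, filters, centring, the replicate block, a fit of only the compared assays, no trend, and each library left out. Python 3.11.15, numpy 2.4.6, pandas 2.3.3 and matplotlib 3.10.9 were used.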

Additional observations from a re-analysis of the deposited data

How the results depend on the processing

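Depth was lowest in TR, with 57 reads for the thinnest member, and 2 or 3 libraries an assay limit every call. The pseudocounts changed no call of the 38 genes. Across the libraries left out, initiation factor genes called above and below 0 numbered 18 to 23 and 0 to 5 in the stability index and 1 to 5 and 0 to 7 in the translation index, and all genes 198 to 1030 above and 1803 to 4228 below 0 in the translation index. With single libraries left out, these indices or ratios changed sign: stability EIF1 (-0.09 to 0.56), EIF3J (-0.35 to 0.05), EIF4EBP2 (-0.52 to 0.13) and EIF5B (-0.09 to 0.48), translation EIF1 (-0.49 to 0.17), EIF2B5 (-0.20 to 0.48), EIF3A (-0.53 to 0.20), EIF3E (-0.06 to 0.42), EIF3G (-0.26 to 0.04), EIF3H (-0.04 to 0.37), EIF4EBP1 (-0.75 to 0.02), EIF4G1 (-0.14 to 0.18), EIF4G3 (-0.66 to 0.06) and EIF5A (-0.51 to 0.14), and EIF4G1 over EIF4G3 from TR to RA (-0.05 to 0.58). None of these was called in the full fit. With at least 1 RPKM required in each assay, fewer genes were tested, 3656 genes were below 0 in the stability index and 2 members, as with only the compared assays in the fit (2) or no trend (2). Without a filter, 3 members were below 0 in the translation index.

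Centring gave 5066 genes above 0 in the stability index, with 0 members below, 2713 genes above and 1404 below in the translation index, with 13 members above and 1 below. It turned the stability index to 0.19 for EIF2S2, 0.34 for EIF2B1, 0.18 for EIF2B2, 0.11 for EIF2B4, 0.50 for EIF2B5, 0.57 for EIF3J, 0.55 for EIF4EBP2 and 0.19 for EIF5. It turned the translation index to 0.32 for EIF1, 0.26 for EIF2S2, 0.16 for EIF2S3, 0.33 for EIF3A, 0.16 for EIF3F, 0.39 for EIF3G, 0.08 for EIF3L, 0.15 for EIF4A2, 0.14 for EIF4EBP1, 0.50 for EIF4G1, 0.20 for EIF4G3, 0.10 for EIF5 and 0.28 for EIF5A. These turns follow from the shift of all genes.

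Equal replicate numbers were not taken to mark paired libraries. Over 10825 genes, the log2 difference of replicate 2 minus replicate 1 was correlated between assays, with RA replicate 3 not used. The correlation was 0.149 between TR and RA, -0.562 between RA and TA and 0.02 between TR and TA. Genes higher in RA replicate 2 than in RA replicate 1 thus tended to be higher in TA replicate 1 than in TA replicate 2. The main fit takes no account of this. With the replicate block, limma called 109 genes above and 1387 below 0 in the translation index, and 0 members above and 0 below (4 and 6 at an unadjusted p under 0.05). In the stability index 22 members were above and 1 below, and EIF4EBP2 was at 0.01. The cause was not tested.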
